A study of Mus musculus with 86 samples.

Results

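Lrat, Reln, Ecm1, Hgf, Colec11 and Hand2 are 6 genes by which the quiescent hepatic stellate cell is commonly recognised. The members are set by name, and the set was chosen with earlier results of these data known. All 6 were present among the 31054 genes of the liver count files and the 38277 rows of the liver table of FPKM (fragments scaled by transcript length and library size). Their levels were followed in whole mouse liver in 2 experiments on the kinase MERTK, a surface receptor with which macrophages recognise and engulf dying cells. In the knockout experiment the groups were wild type (WT) or labelled Mertk knockout (KO), after sham surgery or bile duct ligation (BDL), with 4 libraries in each of the 4 groups. In the inhibitor experiment all mice were wild type. They received injections of UNC569, a small-molecule inhibitor of MERTK, or of the solvent DMSO, after sham surgery or BDL. The liver FPKM table held 3 sham DMSO, 3 sham UNC569, 6 BDL DMSO and 4 BDL UNC569 columns, the last for 6 labelled samples. Its columns name a group and not a sample, so they are numbered here only as columns. Ages, strains, the knockout allele, doses and the time after surgery are not given in the labels used here. The protocol text calls the libraries of a condition biological replicates.

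Stellate cells lie between the sinusoidal endothelium and the hepatocytes and store most of the vitamin A of the body as retinyl esters. Closing the bile duct causes cholestasis, growth of bile ducts and portal scarring. In such injury stellate cells and portal fibroblasts become matrix-producing myofibroblasts, and stellate cells then lose retinoid droplets and many genes of the resting state. The comparisons address whether ligation changed these 6 genes, and whether the knockout label or UNC569 altered that.

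Reads in genes ranged from 14.5 to 23.4 M per library of the knockout experiment, and a member had from 41 to 1939 reads in a library. Depth behind the FPKM values is unknown. Mertk itself was not lower in sham liver labelled knockout. It stood at 18.1, 10.5, 14.8 and 13.8 CPM (counts scaled to a fixed library size by TMM) in the sham WT libraries and at 20.5, 10.8, 13.4 and 18.3 CPM in the sham KO ones. In ligated liver it was 21.3 to 28.4 CPM in WT and 6.95 to 18.8 CPM under the KO label, a log2 fold change of -0.97 ± 0.29 (edgeR, adjusted p = 0.0614). A count over the whole gene does not check a knockout allele, so the groups are named by their labels. The submitters noted a bad fastq file for sham WT 3, sham WT 4, BDL KO 1 and BDL KO 3. The ligated livers also differed in other cell types. A list of 10 bile duct genes summed to 52.3 to 123 CPM in the sham libraries, to 858 to 2319 CPM in BDL WT, and to 69.1, 438, 231 and 96.4 CPM in BDL KO 1 to 4. Albumin, the main hepatocyte product, reached 34840 to 91840 CPM, the stellate markers Des and Pdgfrb were present in every library, and Gfap was at most 0.61 CPM.

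Per length of exon, Ecm1 had the highest level of the members and Colec11 the next. In sham WT liver the median level was 32.99 CPM per kilobase for Ecm1, 12.3 for Colec11, 2.70 for Hand2, 1.29 for Lrat, 1.13 for Reln and 0.49 for Hgf. The ranges of Ecm1, Colec11 and Hand2 (1.77 to 3.55) did not overlap with each other. The range of Lrat (0.60 to 1.87) overlapped those of Hand2, Reln (0.85 to 1.28) and Hgf (0.37 to 0.65), so the ranges alone do not order Lrat against the other 3. The order of these genes within each library was not tested. In sham DMSO liver the median FPKM was 109 for Ecm1, 22.5 for Colec11, 14.6 for Reln, 4.75 for Lrat, 4.33 for Hand2 and 0.20 for Hgf. Reln thus took a different place on each scale, and the transcript lengths behind the FPKM values are not given in the sources used here.

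**Figure D1:**
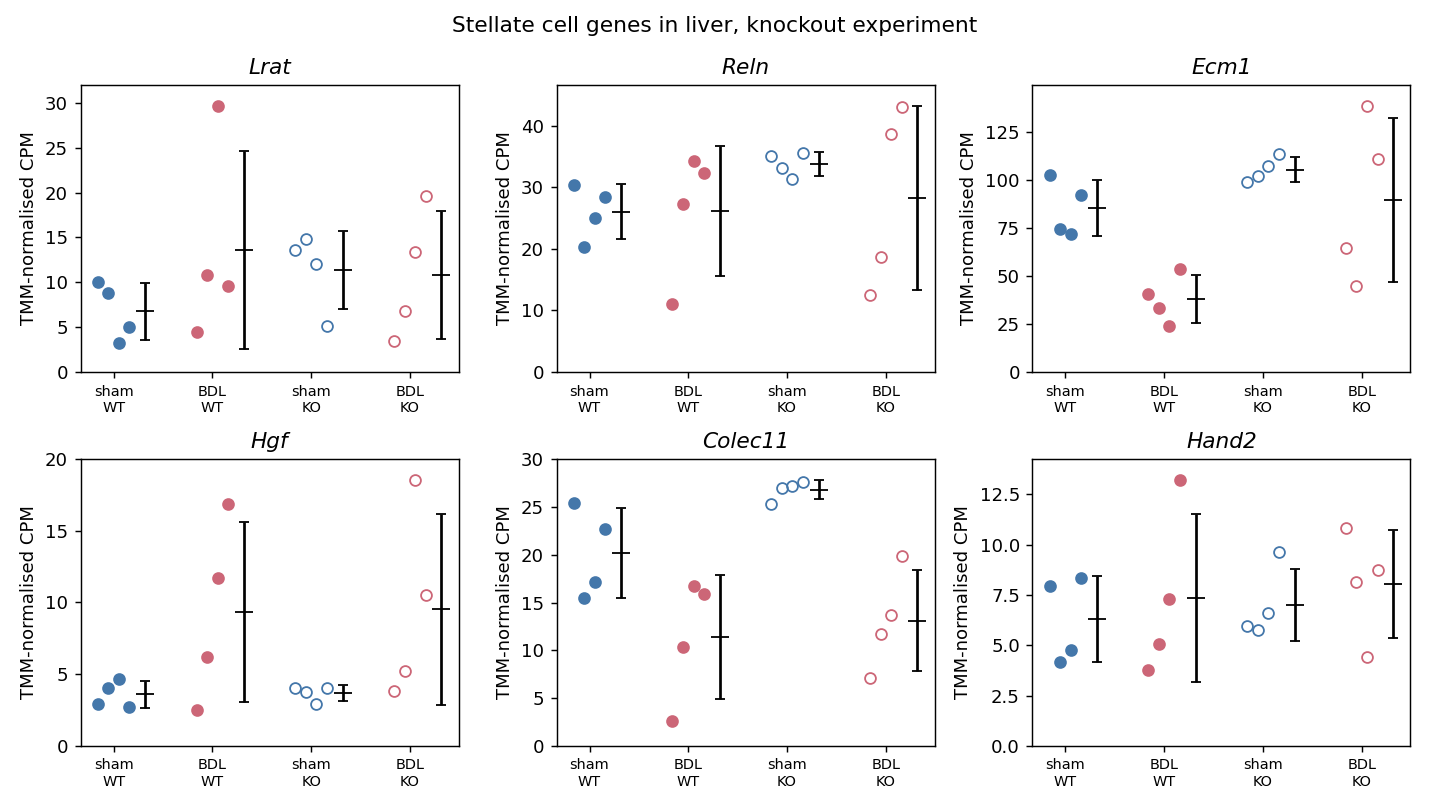
Level of each of the 6 genes in the knockout experiment, in TMM-normalised CPM, with 1 point for each library and the bar giving mean and SD of 4 libraries (filled, wild type; open, labelled knockout; blue, sham; red, ligated). The 4 BDL WT points of Ecm1, from 23.8 to 53.7 CPM, lie under every sham point, whereas the ligated points of Lrat, Reln, Hgf and Hand2 spread over the sham ones.

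Ecm1 was the member that differed most clearly. It fell in ligated WT liver and in ligated DMSO liver, and it was higher in ligated liver with the KO label than in ligated WT liver. Ecm1 (ENSMUSG00000028108, GRCm38 chromosome 3, 95734147 to 95739569, minus strand) encodes a secreted glycoprotein of the matrix that has been described to hold TGF-beta, the main fibrogenic cytokine, in its latent form. It is known from stellate cells and also from hepatocytes. In sham WT liver it measured 102, 74.2, 72.0 and 92.2 CPM, and in BDL WT liver 40.8, 33.5, 23.8 and 53.7 CPM. All 4 ligated libraries lay under all 4 sham libraries. Groups that do not overlap, in either direction, made up 34.7% of genes. The mean went from 85.2 ± 14.6 to 37.96 ± 12.6 CPM (SD, n = 4 each), a log2 fold change of -1.17 ± 0.30 (SE, edgeR quasi-likelihood test, adjusted p = 0.00955). Of the 6 members it alone passed at an adjusted p under 0.05, against 29.1% of the 13492 genes tested passing in either direction and 12.8% as lower. In bulk liver, fewer cells of a type and less RNA per cell cannot be told apart.

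Ligation with DMSO gave a drop of like size in the other experiment. Sham DMSO columns held 62.7, 109 and 182 FPKM of Ecm1. The 6 BDL DMSO columns ran from 30.8 through a median of 43.9 to 56.1 FPKM, all below the sham columns. Groups that do not overlap, in either direction, made up 15.7% of genes in this comparison. On the log2(FPKM + 1) scale the change was -1.28 ± 0.27 (limma, adjusted p = 0.00533). Ecm1 and Lrat were the members called, 2 of the 5 tested, while 13.4% of 12986 genes passed in either direction, 5.47% as higher and 7.92% as lower. In this comparison the median of all genes was -0.10. Under median-of-ratios scaling it was 0.02 and the calls split into 948 higher and 779 lower, in place of 710 and 1028. Ecm1 was called as lower in all 23 alternatives run on the counts and all 20 run on FPKM.

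Under the KO label the ligated livers were mixed. Sham KO libraries held 98.9, 102, 107 and 113 CPM of Ecm1. BDL KO libraries 1 to 4 held 64.5, 44.9, 138 and 111 CPM, so libraries 1 and 2 were low and libraries 3 and 4 stood at the sham level or above. The change with ligation was -0.23 ± 0.30 (edgeR, adjusted p = 0.582), and no member passed there, against 25.1% of genes. With UNC569 the 3 sham columns held 111, 91.4 and 105 FPKM and the 4 ligated columns 112, 104, 91.8 and 81.3 FPKM. That change was -0.08 ± 0.29 (limma, adjusted p = 0.908), again with no member called, against 8.56% of genes in either direction, 3.66% as higher and 4.9% as lower.

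Compared directly among ligated livers, Ecm1 was 2.36-fold higher in mean under the KO label (89.6 ± 42.6 against 37.96 ± 12.6 CPM, SD, n = 4 each). Library BDL KO 2 lay inside the WT range and the other 3 lay above it, and 7.77% of genes had groups that do not overlap. The place of BDL KO 1 depends on scaling. TMM factors were 0.70 in BDL KO 1, 0.75 in BDL KO 3 and 1.39 in BDL WT 3. Before this scaling BDL KO 1 had 1047 Ecm1 reads among 23.4 M in genes. That is a smaller share than the 833 among 15.8 M of BDL WT 4. Levels without TMM factors were not tested. The log2 fold change was 1.24 ± 0.30 (edgeR, adjusted p = 0.0409), the only call among the 6 members, where 4.39% of genes passed in either direction, 2.67% as higher and 1.72% as lower. This call was lost in 17 of 23 alternatives while the direction held in all 23, with log2 fold changes of 0.94 to 1.47. The adjusted p was 0.0543 to 0.0602 without any one of the 8 sham libraries. It was 0.0892, 0.133 and 0.0701 without BDL WT 2, 3 or 4, and 0.0986 and 0.0757 without BDL KO 1 or 3. A fit of only the groups compared gave 0.309, leaving out the 4 libraries with a bad fastq note gave 0.23, and leaving out BDL KO 1 and BDL KO 3 gave 0.144.

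With UNC569, all 4 ligated columns of Ecm1 (81.3 to 112 FPKM) lay above all 6 ligated DMSO columns (30.8 to 56.1 FPKM). Groups that do not overlap occurred in 2.49% of genes in this comparison. The log2 fold change was 1.13 ± 0.24, with an adjusted p of 0.0703 by limma, so Ecm1 was not called. It passed without sham DMSO column 1 (0.0333), without sham DMSO column 3 (0.0338) or without BDL DMSO column 4 (0.0426). Ecm1 did not pass in the other 17 of 20 alternatives, with an adjusted p up to 0.236 (limma). Only 0.316% of genes passed here in either direction, 0.123% as higher and 0.193% as lower. The calls split into 16 higher and 25 lower, and into 10 and 26 under median-of-ratios scaling. In sham liver the difference was 0.31 ± 0.30 for the KO label (edgeR) and -0.07 ± 0.31 for UNC569 (limma), with an adjusted p of 1 in both. No gene was called in either sham comparison, with 70 genes (edgeR) and 241 genes (limma) at an unadjusted p under 0.05, and DESeq2 also called 0 for the label. The ligation response of Ecm1 differed by 0.93 ± 0.42 between labels (edgeR, adjusted p = 0.329) and by 1.20 ± 0.39 between compounds (limma, adjusted p = 0.898). Neither passed. In both tests 0 genes were called, with 1952 and 610 at an unadjusted p under 0.05, and DESeq2 called 146 for the label. The BDL WT and BDL DMSO livers enter both the ligation comparison and the comparison among ligated livers, so these results share samples.

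Markers of other cells also differed between the ligated livers. Summed over 10 genes, macrophage markers were 645 to 1239 CPM in BDL WT and 90.3, 816, 329 and 293 CPM in BDL KO 1 to 4. Among the KO libraries, BDL KO 2 had the lowest Ecm1 (44.9 CPM) with the highest bile duct and macrophage sums, whereas BDL KO 1 had the next lowest Ecm1 (64.5 CPM) with the lowest of both sums. Over 12 genes, hepatocyte markers were 101300 to 123400 CPM in sham WT, 50620 to 98600 CPM in BDL WT and 116500 to 192400 CPM in BDL KO, highest in BDL KO 1. These sums weigh abundant genes most, and single genes went both ways. Of the 12, 1 rose and 4 fell in WT ligation, against 16.3% and 12.8% of all genes. Under the KO label 3 rose and 3 fell with ligation, against 14.0% and 11.2%. The inhibitor experiment had 129 to 816 FPKM of bile duct genes in BDL DMSO and 90.9 to 124 FPKM in BDL UNC569. Its macrophage sums were 573 to 1122 FPKM in BDL DMSO and 326, 321, 909 and 371 FPKM in BDL UNC569 columns 1 to 4. Hepatocyte sums there were 29880 to 39170 FPKM in sham DMSO, 24490 to 39280 FPKM in BDL DMSO and 42600 to 48750 FPKM in BDL UNC569. Of the 12 genes, 0 rose and 3 fell in DMSO ligation, against 5.47% and 7.92% of all genes. In UNC569 ligation 2 rose and 2 fell, against 3.66% and 4.9%. None of these lists had a gene at 0 in all ligated libraries. The part of these cell types in the Ecm1 values was not tested.

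**Figure D2:**
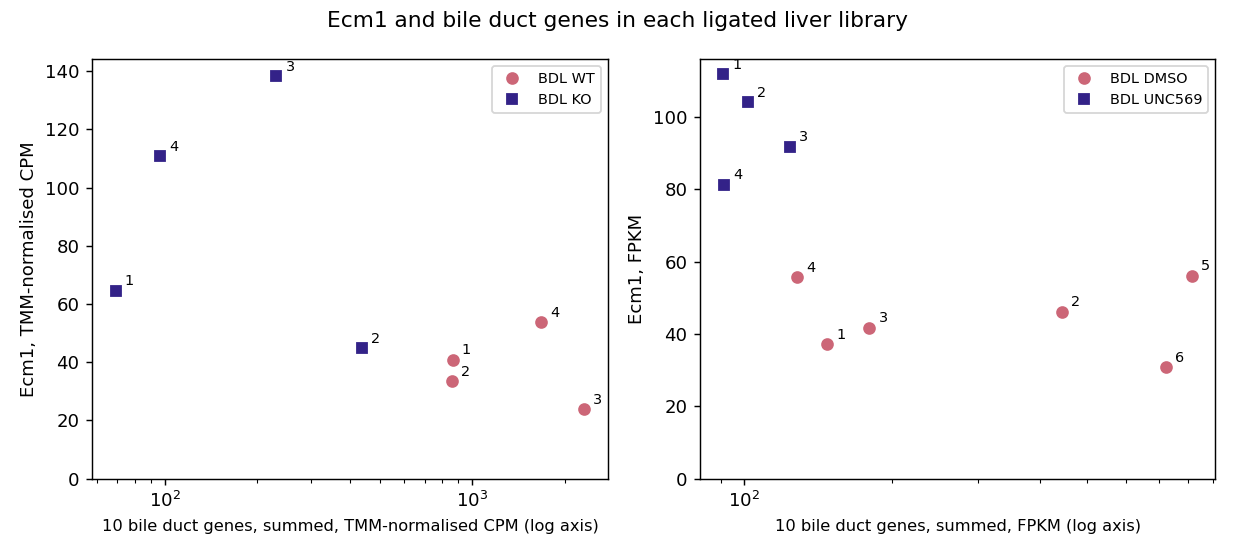
Ecm1 against the summed level of 10 bile duct genes in each ligated liver library, in TMM-normalised CPM (left) and FPKM (right), with a log axis for the bile duct sum and the library or column number beside each point. Ligated livers with the KO label or UNC569 sit at low bile duct sums, from 69.1 to 438 CPM and from 90.9 to 124 FPKM, and BDL KO 1 has the lowest bile duct sum of its panel with 64.5 CPM of Ecm1. BDL DMSO columns 4, 1 and 3, at bile duct sums of 129, 148 and 180 FPKM, hold 55.7, 37.1 and 41.7 FPKM of Ecm1.

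Of 5 motifs searched in the promoters as exact letters, 2 lay in Ecm1 alone among the members. These 2 were chosen after the sequences were read, so where they lie is a description and no test. The 250 bases before the RefSeq start (build GRCm38.p6, minus strand) are shown for Ecm1, for Lrat, the other member called as lower, and for Colec11, whose mean was lower in all 4 ligation comparisons. Capitals mark TATAAA and TGANTCA, the letters of a TATA box and of an AP-1 site, searched on both strands and chosen after the sequences were read.
Ecm1 at chr3:95739570-95739819: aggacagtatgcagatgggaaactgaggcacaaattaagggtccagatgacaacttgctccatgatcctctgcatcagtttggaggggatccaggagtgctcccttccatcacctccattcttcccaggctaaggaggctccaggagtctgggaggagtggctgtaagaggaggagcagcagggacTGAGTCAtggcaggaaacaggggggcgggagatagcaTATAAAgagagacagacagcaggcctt
Lrat at chr3:82903975-82904224: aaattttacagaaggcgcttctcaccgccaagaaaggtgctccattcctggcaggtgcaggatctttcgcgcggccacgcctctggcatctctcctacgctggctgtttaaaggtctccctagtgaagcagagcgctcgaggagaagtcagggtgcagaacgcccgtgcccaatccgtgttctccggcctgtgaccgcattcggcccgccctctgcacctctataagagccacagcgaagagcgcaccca
Colec11 at chr12:28623331-28623580: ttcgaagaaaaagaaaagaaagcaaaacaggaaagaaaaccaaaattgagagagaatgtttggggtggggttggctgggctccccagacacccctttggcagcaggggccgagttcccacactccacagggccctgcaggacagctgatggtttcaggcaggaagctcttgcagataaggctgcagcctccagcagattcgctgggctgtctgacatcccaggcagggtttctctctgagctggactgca
In Ecm1, TATAAA began 27 bases before the start and TGAGTCA 64 bases before it. TATAAA occurred in 12.4% and TGANTCA in 6.75% of 32851 mouse promoters of the same length. Neither was found as these exact letters in the window of any other member. The Lrat window holds the similar stretch ctataaga near its end, which this search does not count. The other 3 motifs searched were shared by several members. An E-box (CANNTG) lay in a window of every member and in 66.2% of promoters. The SMAD box (CAGAC) lay in Ecm1, Hgf and Colec11 and in 42.2% of promoters. AGATAA, a form of the motif of GATA factors, lay in Colec11 and Hand2 and in 9.99% of promoters. The similar stretch agatag, just before TATAAA in the Ecm1 window, is not counted by this search. Ecm1 had 1 CpG in its window, against 18 for Lrat and 3 for Colec11, and 37 for Reln, the highest. These matches are letters in a window and no measure of binding.

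Lrat fell after ligation with DMSO and passed in no other comparison; its mean in WT liver was higher after ligation. Lrat (ENSMUSG00000028003, chromosome 3, 82892579 to 82903973, minus strand) encodes lecithin retinol acyltransferase, which makes the retinyl esters that quiescent stellate cells store. It stood at 10, 8.79, 3.23 and 5.02 CPM in sham WT and at 4.43, 10.8, 29.6 and 9.54 CPM in BDL WT. One ligated library, BDL WT 3, was far above the rest, and BDL WT 1 and 4 fell inside the sham range. The log2 fold change was 1.01 ± 0.58 (edgeR, adjusted p = 0.196), and 0.31 without BDL WT 3 (adjusted p = 0.706). Values under the KO label were 13.6, 14.8, 12.1 and 5.10 CPM after sham surgery and 3.51, 6.79, 13.3 and 19.6 CPM after ligation, overlapping widely (-0.07 ± 0.57, edgeR, adjusted p = 0.936).

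In the inhibitor experiment the sham DMSO columns of Lrat held 4.75, 4.68 and 8.10 FPKM. The BDL DMSO columns ran from 0.64 through a median of 2.02 to 3.22 FPKM. No ligated column reached a sham column, and groups that do not overlap made up 15.7% of genes. The change was -1.19 ± 0.33 on the log2(FPKM + 1) scale (limma, adjusted p = 0.0267). That call was lost without sham DMSO column 2 (adjusted p = 0.0594) or column 3 (0.15), without a filter on low values (0.0516) and under median-of-ratios scaling (0.0517). With UNC569 the sham columns held 4.46, 4.16 and 4.31 FPKM, all below the sham DMSO columns. Between these sham groups 5.06% of genes did not overlap, in either direction. The ligated UNC569 columns held 1.57, 2.23, 4.92 and 0.91 FPKM. Column 3 was above the sham columns and the other 3 below them, and the change of -0.77 ± 0.36 was not called (limma, adjusted p = 0.211). It passed when BDL UNC569 column 3 was left out (log2 -1.08, adjusted p = 0.0449). Among ligated livers Lrat differed by -0.34 ± 0.57 for the KO label (edgeR, adjusted p = 0.731) and by 0.09 ± 0.30 for UNC569 (limma, adjusted p = 0.937). The experiments were normalised apart, and the difference between them was not tested.

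Other genes of retinoid handling moved in both directions. Of 25 listed, 22 were tested in WT liver, 3 rose and 3 fell, against 16.3% and 12.8% of all genes. The median log2 fold change was -0.09 against 0.03 for all genes. Ces1d, a carboxylesterase, fell from 619 ± 73.3 to 111 ± 12 CPM (log2 -2.48 ± 0.38, edgeR, adjusted p = 0.000327), and Ttr, a transport protein of plasma, fell by 1.60 ± 0.28 on the log2 scale (adjusted p = 0.000925). Among 21 tested with DMSO, 2 rose and 6 fell, against 5.47% and 7.92% of all genes. The median was -0.36 against -0.10 for all genes.

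Colec11 had a lower mean after ligation in all 4 comparisons, and none of them passed. Colec11 (ENSMUSG00000036655, chromosome 12, 28594173 to 28623377, minus strand) encodes collectin-11, a secreted pattern-recognition lectin that starts the lectin pathway of complement. Sham WT libraries had 25.5, 15.5, 17.1 and 22.7 CPM and BDL WT libraries 2.59, 10.4, 16.8 and 15.9 CPM. BDL WT 1 was very low, while BDL WT 3 and 4 lay inside the sham range (log2 -0.82 ± 0.40, edgeR, adjusted p = 0.136). Under the KO label the sham values were tight, at 25.4, 27.1, 27.2 and 27.7 CPM, and all 4 ligated values, at 7.08, 11.8, 13.7 and 19.9 CPM, lay under them. Groups that do not overlap made up 26.7% of genes in that comparison. The log2 fold change was -1.03 ± 0.41 (edgeR, adjusted p = 0.0715). It passed without BDL WT 1 (0.0134) or BDL KO 4 (0.0303), in a fit of only the groups compared (0.0487) and with DESeq2 (0.049). Colec11 did not pass in the other 19 of 23 alternatives, with an adjusted p up to 0.364 (edgeR).

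Colec11 in the inhibitor experiment was 14.6, 22.5 and 27.05 FPKM in sham DMSO. BDL DMSO columns ran from 1.46 through a median of 9.34 to 21.2 FPKM, with 4 of 6 below every sham column (log2 -1.44 ± 0.60, limma, adjusted p = 0.124). Sham UNC569 columns held 30.2, 20.9 and 15.3 FPKM and BDL UNC569 columns 8.82, 9.26, 30.9 and 9.04 FPKM, so column 3 stood apart from the other 3 (-0.73 ± 0.65, limma, adjusted p = 0.555). That column also had 701 FPKM summed over 7 neutrophil genes, against 75.5 to 151 in the other 3, and the part of this in its Colec11 value was not tested. Among ligated livers neither the KO label (0.20 ± 0.40, edgeR, adjusted p = 0.777) nor UNC569 (0.74 ± 0.55, limma, adjusted p = 0.641) gave a call.

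In the lectin pathway around Colec11, 2 of 12 genes tested rose and 2 fell in WT liver (median log2 0.08). With DMSO 0 rose and 4 fell (median -0.34). Over all genes 16.3% rose and 12.8% fell in WT liver, and 5.47% rose and 7.92% fell with DMSO. Colec10, the sister collectin that pairs with Colec11, stood at 15.1 ± 3.49 and 9.12 ± 4.98 CPM and did not pass (log2 -0.72 ± 0.63, edgeR, adjusted p = 0.405). With DMSO it fell from 10.4 ± 5.39 to 2.296 ± 1.53 FPKM (-1.83 ± 0.40, limma, adjusted p = 0.0066). Masp2, the protease of the pathway made by hepatocytes, fell in both experiments (log2 -1.18 ± 0.15, edgeR, adjusted p = 0.000106, and -0.96 ± 0.22, limma, adjusted p = 0.00852). Masp1 did not pass in either (0.27 ± 0.20 and -0.23 ± 0.21).

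**Figure D3:**
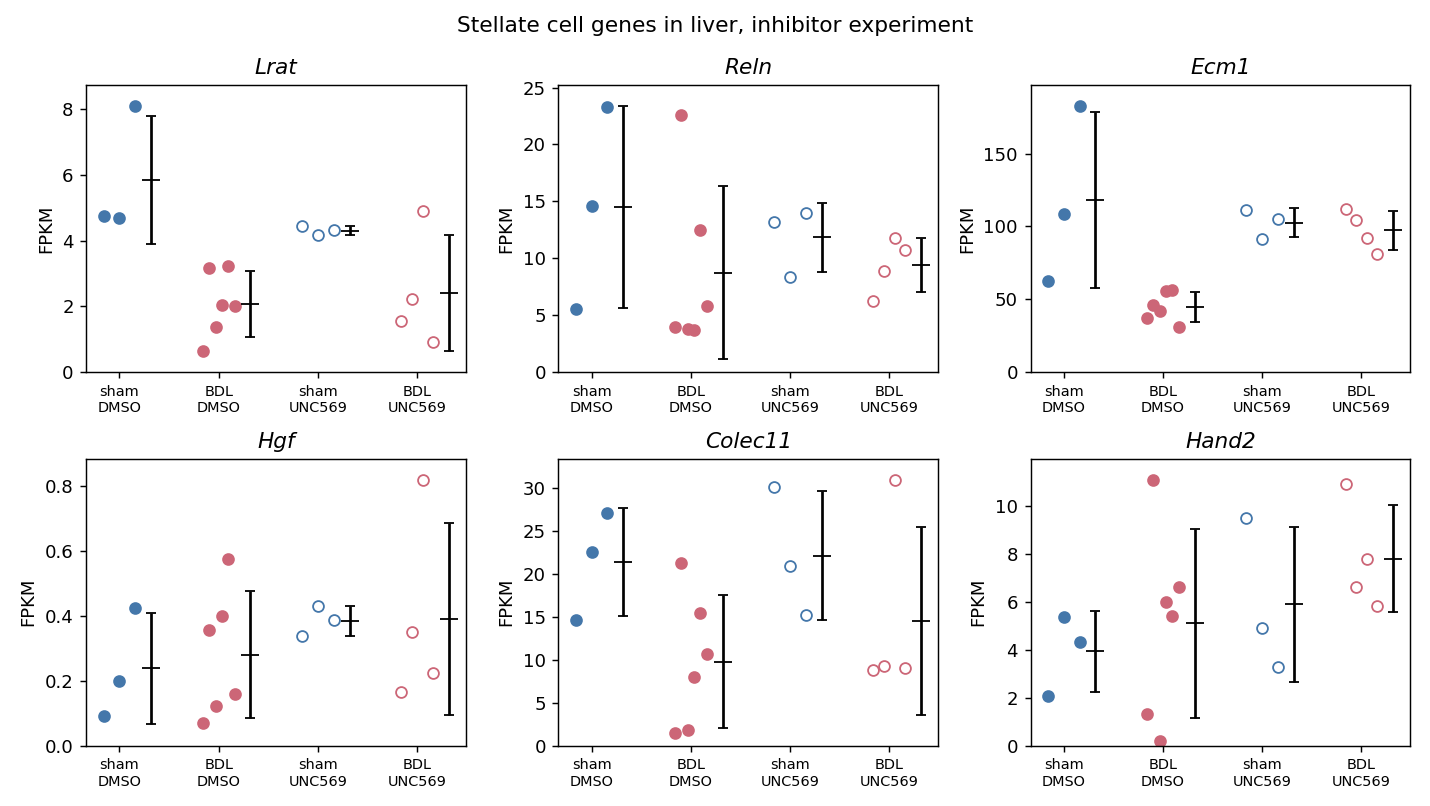
Level of each of the 6 genes in the inhibitor experiment, in FPKM, with 1 point for each column and the bar giving mean and SD (filled, DMSO; open, UNC569; blue, sham, n = 3; red, ligated, n = 6 with DMSO and 4 with UNC569). For Lrat and Ecm1 no ligated DMSO point reaches a sham DMSO point, and the ligated UNC569 points of Ecm1, from 81.3 to 112 FPKM, spread around the sham UNC569 points, from 91.4 to 111 FPKM, with 1 below and 1 above all of them.

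Hgf was higher in mean after ligation in the knockout experiment, just short of the threshold in both WT and KO-labelled mice. Hgf (ENSMUSG00000028864, chromosome 5, 16553495 to 16620152, plus strand) encodes hepatocyte growth factor, which stellate cells secrete and which acts on hepatocytes through the receptor MET. It measured 2.94, 4.04, 4.68 and 2.67 CPM in sham WT and 2.53, 6.17, 11.7 and 16.8 CPM in BDL WT. BDL WT 1 had the lowest value of the 8, and the other 3 lay above all sham libraries. The log2 fold change was 1.38 ± 0.51 (edgeR, adjusted p = 0.0552). It passed without BDL WT 1 (0.0141), BDL KO 1 (0.0385) or BDL KO 3 (0.0273), without both of these KO libraries (0.0222) and with DESeq2 (0.0271). Hgf did not pass in the other 18 of 23 alternatives, with an adjusted p up to 0.203 (edgeR).

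KO-labelled sham libraries held 4.06, 3.76, 2.89 and 4.03 CPM of Hgf, and ligated ones 3.82, 5.20, 18.5 and 10.5 CPM. Here too 3 of 4 ligated libraries lay above every sham library, and BDL KO 1 lay among the sham values (1.36 ± 0.52, edgeR, adjusted p = 0.0627). Calls appeared without BDL WT 1 (0.0344), BDL WT 4 (0.05 after rounding), BDL KO 1 (0.0334) or BDL KO 2 (0.043) and with DESeq2 (0.0279), while the log2 fold change dropped to 0.83 without BDL KO 3 (0.244). Between labels in ligated liver it was 0.03 ± 0.50 (edgeR, adjusted p = 0.978). In the FPKM table Hgf was below the filter of 1 FPKM in every column and was left out of the fit. It measured 0.09, 0.20 and 0.43 FPKM in sham DMSO, and 0.07 to 0.58 with a median of 0.26 FPKM in BDL DMSO. An exact two-sided permutation test gave p = 0.857 (0.914 adjusted over 4 comparisons of Hgf). UNC569 columns held 0.34, 0.43 and 0.39 FPKM after sham surgery and 0.17, 0.35, 0.82 and 0.23 FPKM after ligation (exact permutation p = 0.914).

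Among genes of HGF processing and signalling, 7 of 17 rose and 2 fell in WT liver, against 16.3% and 12.8% of all genes. Their median log2 fold change was 0.36. Plaur, the urokinase receptor, rose from 0.44 ± 0.32 to 6.31 ± 1.99 CPM (3.80 ± 0.56, edgeR, adjusted p = 0.000289). St14, the membrane protease matriptase that can cut pro-HGF, rose from 0.75 ± 0.37 to 8.07 ± 4.86 CPM (3.40 ± 0.54, adjusted p = 0.000483). Hgfac, the plasma activator of HGF, fell from 326 ± 44.6 to 116 ± 26.9 CPM (-1.49 ± 0.20, adjusted p = 0.000131). Met was 77.6 ± 6.91 and 69.3 ± 10.9 CPM and did not pass (-0.16 ± 0.23, edgeR, adjusted p = 0.613), but it fell with DMSO from 22.1 ± 2.88 to 12.6 ± 1.89 FPKM (-0.77 ± 0.17, limma, adjusted p = 0.0074). With DMSO 4 of 15 rose and 1 fell (median 0.37), against 5.47% and 7.92% of all genes.

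Reln did not pass in any comparison. Reln (ENSMUSG00000042453, chromosome 5, 21884454 to 22344702, minus strand) encodes reelin, a large secreted glycoprotein known from neuronal migration and, in liver, from stellate cells. It stood at 30.4, 20.3, 25.04 and 28.4 CPM in sham WT and 10.96, 27.3, 34.3 and 32.2 CPM in BDL WT. One library, BDL WT 1, was low and 2 were above all sham libraries, and the means were 26.04 ± 4.43 and 26.2 ± 10.6 CPM. The log2 fold change was 0.01 ± 0.35 (edgeR, adjusted p = 0.988). Sham KO libraries were close together at 35.05, 33.2, 31.3 and 35.5 CPM, all above the sham WT libraries (0.37 ± 0.35, edgeR, adjusted p = 1). Between these sham groups 1.87% of genes did not overlap, in either direction. BDL KO libraries spread from 12.6 and 18.7 to 38.7 and 43.1 CPM (-0.26 ± 0.35 against sham, adjusted p = 0.613).

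Sham DMSO columns of Reln held 5.53, 14.6 and 23.3 FPKM, and BDL DMSO columns ran from 3.73 through a median of 4.85 to 22.6 FPKM (-0.78 ± 0.48, limma, adjusted p = 0.304). The UNC569 columns were 13.2, 8.37 and 14.0 FPKM after sham surgery and 6.28, 8.85, 11.8 and 10.7 FPKM after ligation (-0.31 ± 0.52, limma, adjusted p = 0.783). Of 14 genes of the reelin pathway, 4 rose and 1 fell in WT liver (median 0.33), against 16.3% and 12.8% of all genes. Among them were Src, a kinase of the pathway, from 2.51 ± 0.62 to 9.34 ± 3.87 CPM (1.90 ± 0.40, edgeR, adjusted p = 0.00272) and Dab1, its adaptor, which stayed low at 0.31 ± 0.29 and 1.28 ± 0.59 CPM (2.00 ± 0.68, adjusted p = 0.0362). The receptor Vldlr did not pass (-0.52 ± 0.43, edgeR, adjusted p = 0.375), whereas Lrp8, the other receptor, rose while staying low, from 0.13 ± 0.22 to 0.82 ± 0.20 CPM (2.61 ± 0.90, edgeR, adjusted p = 0.0385). With DMSO 1 of 10 rose and 0 fell, against 5.47% and 7.92% of all genes.

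Hand2 likewise had no call. Hand2 (ENSMUSG00000038193, chromosome 8, 57320983 to 57324633, plus strand) encodes a basic helix-loop-helix transcription factor of heart, limb and mesenchyme. The antisense gene Hand2os1 overlaps it, and in libraries without strand the reads of the pair cannot be told apart. Sham WT libraries held 7.94, 4.17, 4.75 and 8.34 CPM, and BDL WT libraries 3.76, 5.08, 7.30 and 13.2 CPM (0.22 ± 0.38, edgeR, adjusted p = 0.691). KO-labelled values were 5.96, 5.76, 6.62 and 9.64 CPM after sham surgery and 10.8, 8.14, 4.40 and 8.74 CPM after ligation (0.20 ± 0.37, edgeR, adjusted p = 0.713). The groups overlapped in both cases.

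Hand2 was widely spread with DMSO. Sham DMSO columns held 2.09, 5.37 and 4.33 FPKM, and BDL DMSO columns ran from 0.20 through a median of 5.69 to 11.1 FPKM (0.01 ± 0.55, limma, adjusted p = 0.992). UNC569 columns held 9.51, 4.92 and 3.28 FPKM after sham surgery and 10.9, 6.63, 7.79 and 5.82 FPKM after ligation (0.42 ± 0.59, limma, adjusted p = 0.736). Of 18 mesenchymal transcription factors tested in WT liver, 5 rose and 2 fell (median 0.53), against 16.3% and 12.8% of all genes. The zinc finger factor Gata6 rose from 6.62 ± 1.27 to 24.3 ± 7.47 CPM (1.87 ± 0.33, edgeR, adjusted p = 0.000877), the MADS-box factor Mef2a by 0.74 ± 0.17 (adjusted p = 0.00514) and the T-box factor Tbx20 by 1.75 ± 0.43 (adjusted p = 0.00681). With DMSO 0 of 14 rose and 2 fell, against 5.47% and 7.92% of all genes. Gata6 did not pass there (0.65 ± 0.32, limma, adjusted p = 0.189).

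**Figure D4:**
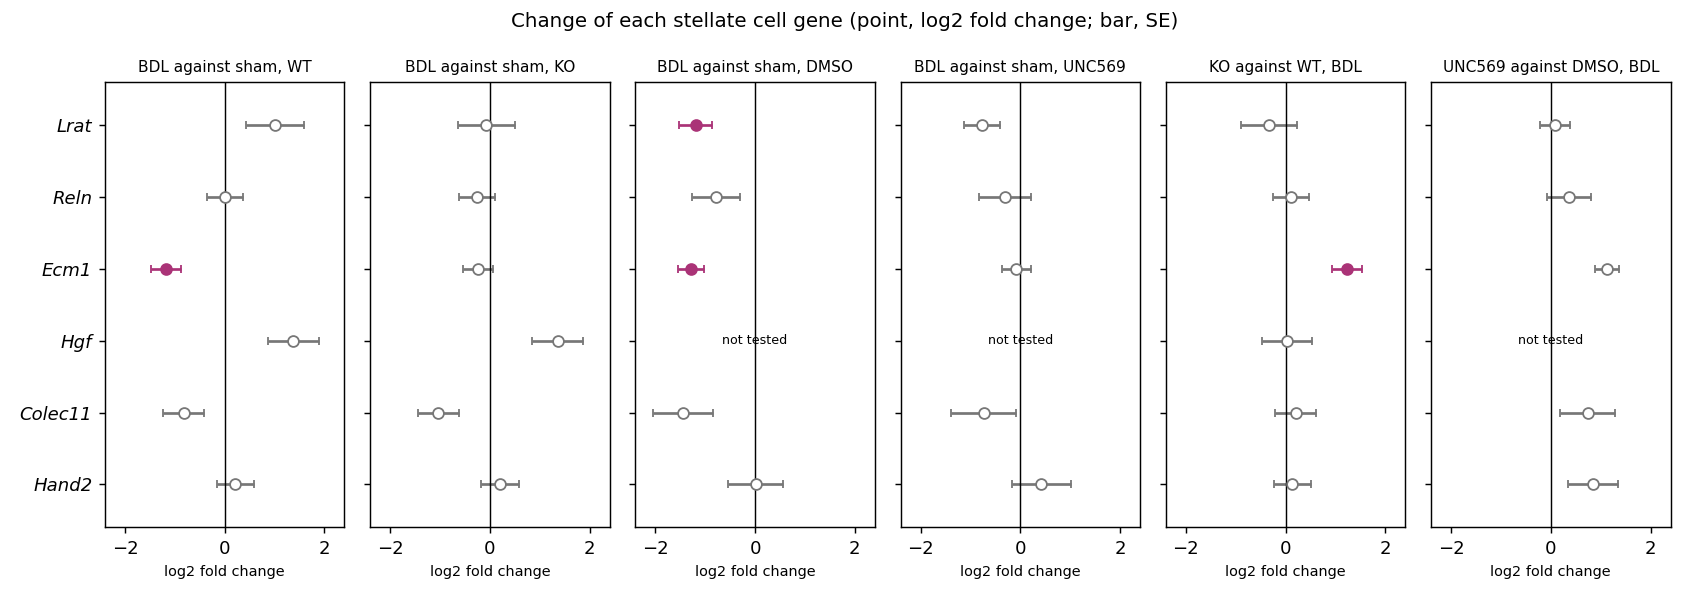
Log2 fold change of each gene in 6 comparisons, with SE bars, from edgeR for the knockout experiment (panels of WT and KO) and limma on log2(FPKM + 1) for the inhibitor experiment. Filled points passed at an adjusted p under 0.05, which holds for Ecm1 in 3 panels and Lrat in 1. Hgf was left out of the limma fit on FPKM, where its place reads not tested.

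In the knockout experiment the 6 genes did not move together as a group. In WT liver their median log2 fold change was 0.11 against 0.03 for all genes, with 0 called as higher and 1 as lower, and under the KO label it was -0.15 against 0.07. With DMSO the median of the 5 tested was -1.19 against -0.10 for all genes, and with UNC569 -0.31 against -0.01. The changes with DMSO were -1.19 for Lrat, -0.78 for Reln, -1.28 for Ecm1, -1.44 for Colec11 and 0.01 for Hand2. Of these, only Ecm1 and Lrat were called. Part of the spread followed libraries. BDL WT 1 had the lowest value of its group for 5 of the 6 members, BDL KO 1 for 4, and sham DMSO column 1 for 5. Sham DMSO column 3 had the highest value for 5 members and BDL UNC569 column 3 for 4.

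Genes of activated stellate cells and myofibroblasts rose in the same ligated livers. Of 24 tested in WT, 22 rose and 0 fell, against 16.3% and 12.8% of all genes. Their median log2 fold change was 2.71. Col1a1, a chain of type I collagen, went from 15.8 ± 8.72 to 228 ± 122 CPM (3.85 ± 0.60, edgeR, adjusted p = 0.000411). Acta2, smooth muscle actin, stood at 4.31 ± 5.67 and 14.9 ± 6.83 CPM and did not pass (1.79 ± 0.89, adjusted p = 0.143). With DMSO 6 of 22 rose and 0 fell, against 5.47% and 7.92% of all genes. The median was 0.90, with Col1a1 at 2.20 ± 0.53 (limma, adjusted p = 0.0131). Between labels in ligated liver 11 of 24 were lower under KO and 0 higher (edgeR), with a median of -1.46, where 1.72% of all genes passed as lower. No gene passed as lower there in 14 of 23 alternatives, and the summed level of the list was 2565 to 4203 CPM in BDL WT and 1899 to 5213 CPM in BDL KO. With UNC569 none of 22 passed (median -0.69).

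Other genes known from stellate cells passed in both directions. Of 26 tested in WT liver 7 rose and 3 fell (median 0.33), where 16.3% of all genes rose and 12.8% fell. With DMSO 2 of 23 rose and 4 fell (median -0.46), where 5.47% of all genes rose and 7.92% fell. Angptl6 fell from 9.96 ± 1.31 to 1.27 ± 0.35 CPM (-2.98 ± 0.41, edgeR, adjusted p = 0.000169), and Des, the stellate filament desmin, stood at 4.77 ± 2.04 and 5.73 ± 2.19 CPM (0.27 ± 0.42, adjusted p = 0.664). In the list of TGF-beta activation and partners of ECM1, 12 of 19 rose and 1 fell in WT liver, with a median of 1.52. Thbs1, a secreted activator of latent TGF-beta, rose from 1.496 ± 1.02 to 38.6 ± 27.4 CPM (4.68 ± 0.69, edgeR, adjusted p = 0.000273). Mmp2, a gelatinase, rose by 2.87 ± 0.48 (adjusted p = 0.000654) and the integrin chain Itgav by 1.40 ± 0.22 (adjusted p = 0.000402). With DMSO 4 of 15 rose and 0 fell, with Thbs1 at 2.38 ± 0.32 (limma, adjusted p = 0.000233), Mmp2 at 1.39 ± 0.38 (adjusted p = 0.0241) and Itgav at 0.43 ± 0.26 (adjusted p = 0.292).

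Of 12230 genes compared over the 16 libraries of the knockout experiment, Gpr146, Klhl21 and Atxn2l had the profile nearest to Ecm1. Their root mean square difference from its centred log2 CPM was 0.26, 0.32 and 0.34, where the median gene stood at 0.85 and Ecm1 itself varied by 0.71 about its mean. Over the 16 FPKM columns they ranked only 6266, 4275 and 2326 of 12985 genes.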

How the data were processed

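Per the labels' protocols, liver RNA was purified with a Qiagen mini kit, and TruSeq RNA v2 libraries, which keep no strand, were sequenced on an Illumina HiSeq with reads of 100 bases. The submitters' processing notes list FastQC, Trim Galore, STAR and edgeR without versions, and both mm10 and hg38 as builds. For the knockout experiment the deposited values are raw STAR counts per gene, and their unstranded column was used. Of their 31054 gene IDs, 99.6% matched a symbol. The deposited table of the inhibitor experiment holds FPKM values, and the tool that made them is not given in the sources used here. Of 6 samples labelled BDL UNC569, 4 had columns, and the other 2 were not analysed here.

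Counts were filtered with filterByExpr, scaled with TMM and tested with edgeR 4.0.16 in R 4.3.3 by quasi-likelihood F tests over 13492 genes, with 16 libraries and 4 groups in 1 fit. FPKM was tested with limma 3.58.1 (trend) on log2(FPKM + 1) for 12986 genes with at least 1 FPKM in at least 3 columns. These log2 fold changes understate the change of low genes. P-values were adjusted by Benjamini-Hochberg over all genes tested, and a gene was called at an adjusted p under 0.05. SE was taken as the size of the log2 fold change over the root of F for edgeR. Hgf on FPKM was tested by an exact two-sided permutation test, whose smallest possible p was 0.0238 for DMSO and 0.0571 for UNC569 ligation. No 2 count libraries of a group were identical or agreed within sampling noise. Both scripts were tested on simulated data. Per-length levels used exons of GENCODE M21, and promoters came from RefSeq (GRCm38.p6, all 6 members matched).

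The members and gene lists were chosen with earlier results of these data known. Named genes are the members, from each list up to 3 genes with the smallest p in WT ligation among those called, the defining partners of a member, and the 3 genes nearest in profile to a member called in the counts. One gene that this rule names is not reported here. Alternatives for counts were DESeq2 1.42.0, RLE factors, a block for replicate number, leaving out libraries with a bad fastq note, and leaving out BDL KO 1 and BDL KO 3. For FPKM they were a pseudocount of 0.1 and median-of-ratios scaling, and for both no filter on low values, only the groups compared, and leaving out each library in turn.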

Additional observations from a re-analysis of the deposited data

Results flagged for a closer look

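Colec11 in ligated liver with UNC569 was 30.9 FPKM in column 3 and 8.82, 9.04 and 9.26 FPKM in the other columns, which set column 3 apart from the rest of its group. Of 36 sets of 4 or 6 values examined in this way, 1 stood out, and chance alone sets apart about 1 in 20. The cause was not tested.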

How the results depend on the processing

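The sign of Ecm1 was the same in all alternatives of WT and DMSO ligation and of both comparisons among ligated livers. The number of members called was 2 (Ecm1 and Hgf) in WT ligation with DESeq2 and without BDL KO 1 and BDL KO 3, in place of 1. In KO ligation it was 2 (Hgf and Colec11) with DESeq2 and 1 (Colec11) with only the groups compared, in place of 0. Between labels in ligated liver it was 0 in place of 1 with only the groups compared, without the libraries noted for a bad fastq file and without BDL KO 1 and BDL KO 3. With DMSO it was 1 (Ecm1) in place of 2 without a filter on low values and under median-of-ratios scaling. When 1 library was left out, the number ran from 1 to 2 in WT and in DMSO ligation, from 0 to 2 in KO ligation, and from 0 to 1 between labels in ligated liver, with UNC569 ligation and between compounds in ligated liver. Replicate numbers did not pair the libraries: same-numbered libraries of different groups deviated together (r over 0.1) in 5 of 24 pairs. With the number as a replicate block, the members called between labels in ligated liver came to 0, the genes called to 239 in place of 592, and Reln in WT ligation to -0.087. No paired analysis was possible for the FPKM columns because they carry no sample number.

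Small log2 fold changes turned sign. Reln in WT ligation was -0.011 with no filter and -0.0091 without BDL KO 1 and BDL KO 3. Lrat in KO ligation was 0.22, and Hgf between labels in ligated liver -0.22, both without the bad fastq libraries and without BDL KO 1 and BDL KO 3. Hand2 with DMSO was -0.23 with a pseudocount of 0.1. With 1 library left out, WT ligation ranged from -0.13 to 0.26 for Reln and -0.23 to 0.43 for Hand2, and KO ligation from -0.55 to 0.22 for Lrat. Between labels in ligated liver the range was -0.79 to 0.40 for Lrat, -0.17 to 0.35 for Reln, -0.52 to 0.48 for Hgf, -0.12 to 0.46 for Colec11 and -0.078 to 0.58 for Hand2. It was -0.29 to 0.41 for Hand2 with DMSO, -0.16 to 0.00092 for Ecm1 in UNC569 ligation, and between compounds -0.22 to 0.33 for Lrat in ligated liver and -0.46 to 0.30 for Ecm1 in sham liver. Genes called between labels in ligated liver numbered 1908 with DESeq2, 322 with no filter, 0 with only the groups compared or without the bad fastq libraries, and 4 without BDL KO 1 and BDL KO 3, in place of 592. With 1 library left out it was 0 without any one of the 8 sham libraries or BDL WT 2, 3 or 4, 1 without BDL KO 1 or 3, 1563 without BDL WT 1, 1921 without BDL KO 2 and 1434 without BDL KO 4 (edgeR). Without BDL KO 1 and BDL KO 3 WT ligation gave 5951 in place of 3927. KO ligation gave 1730 with only the groups compared, 1724 without the bad fastq libraries and 2142 without BDL KO 1 and BDL KO 3, in place of 3392. DMSO ligation gave 1155 with only the groups compared, in place of 1738. UNC569 in ligated liver gave 15 with a pseudocount of 0.1, 1 with no filter and 0 with only the groups compared, in place of 41, and 0 to 143 with 1 column left out. The causes were not tested. Lowest read counts of Hgf, Colec11 and Lrat in a library were 41, 42 and 47, and the depth behind the FPKM values is unknown.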

Other observations

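Vipr1, a peptide hormone receptor known from stellate cells and no member, was chosen after its values were seen, as were the 2 genes after it. It fell from 22.8 ± 5.65 to 5.79 ± 2.09 CPM in ligated WT liver (log2 -1.99 ± 0.40, edgeR, adjusted p = 0.00215) and from 9.24 ± 2.73 to 2.68 ± 2.24 FPKM with DMSO (-1.67 ± 0.38, limma, adjusted p = 0.009). In ligated liver its mean was 14.5 CPM under the KO label (1.33 ± 0.40 against WT, edgeR, adjusted p = 0.0588) and 8.16 FPKM with UNC569 (1.54 ± 0.35 against DMSO, limma, adjusted p = 0.0837), neither past the threshold. Angptl6, of the same list, was higher under the KO label in ligated liver (4.73 against 1.27 CPM, 1.91 ± 0.41, edgeR, adjusted p = 0.0384), in a comparison where no gene passed as higher in 14 of 23 alternatives, with 0.35 ± 0.35 for UNC569 (limma, adjusted p = 0.734). Thbs1 was lower with UNC569 in ligated liver, at 0.82 against 4.99 FPKM (-1.65 ± 0.29, limma, adjusted p = 0.0295), in a comparison where no gene passed as lower in 5 of 20 alternatives, and -0.92 ± 0.58 under the KO label (edgeR, adjusted p = 0.317).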
